A study of Pyrus communis with 12 samples.

Results

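ERS1 (PCP004450) and ERS2 (PCP026971) are the 2 genes of pear that the study annotated as ethylene response sensors, one class of ethylene receptor. They were taken by their identifiers from a table of 45217 genes, with the names given by the study, and both passed the filter on low counts that 23155 genes passed. RNA was measured in the peeled flesh (cortex) of fruit of Pyrus communis cv. Abate Fetel, a European pear, sampled at 4 harvesting stages that the labels call harvest week 1 (H1), week 2 (H2), week 3 (H3) and week 4 (H4). All fruit were untreated and sampled at harvest, before any cold storage, and the stages were 7, 13 and 7 days apart. Each stage had 3 libraries (12 in all), described as biological replicates from one orchard, and within each stage the fruit were first sorted by a chlorophyll absorbance index so that the most frequent class was used. A later stage therefore differs from an earlier one in harvest date and in the sorted class of fruit together, and these cannot be told apart.

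Ethylene is the hormone that drives ripening in climacteric fruit such as pear. It is made from S-adenosylmethionine by ACC synthase (ACS) and ACC oxidase (ACO), and it is perceived by receptors in the endoplasmic reticulum membrane. In Arabidopsis and tomato these receptors are negative regulators: without ethylene they keep the kinase CTR1 active and the response off, and binding of the hormone switches them off, so that EIN2 and the EIN3 transcription factors can turn on ERF genes. ERS receptors are the class that lacks the receiver domain carried by ETR1. In tomato several receptor genes are themselves induced during ripening, and the receptor proteins are degraded after they bind ethylene.

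Library totals ran from 7776419 to 10675582 counts and were highest in H4 (9587843 to 10675582). Values below are CPM, counts scaled to a common library size, after TMM scaling, whose factors were 0.938 to 0.967 in H4 and 1.003 to 1.031 in the other 9 libraries. A count of 3, used as the floor of what a library shows, was 0.281 to 0.386 CPM. Gene lengths were not given, so changes are compared between genes and levels are not. The identifiers are paired with names for few genes, so the flesh label was not checked against marker genes. In bulk tissue, fewer cells of a type and less RNA per cell cannot be told apart.

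ERS1 transcripts were most abundant at the last harvest. ERS1 had 11.4, 9.75 and 10.3 CPM in the H1 libraries, 15.9, 15.4 and 13.9 CPM in H2, 17.5, 17.1 and 12.6 CPM in H3 and 37.5, 60.3 and 56.2 CPM in H4. The lowest H4 library lay above every library of the other stages, the highest of which had 17.5 CPM. The H2 and H3 libraries overlapped each other, and both stages lay above all 3 libraries of H1. Among all genes tested, 12.8% had their H4 libraries above the other 9, 12.8% had H2 above H1 without overlap and 14.4% had H3 above H1. ERS1 rested on 82 to 90 counts per library at H1, 119 to 132 at H2, 109 to 162 at H3 and 348 to 604 at H4.

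ERS2 rested on far fewer counts and its stages were less clearly apart. ERS2 had 2.02, 2.17 and 1.75 CPM in H1, 0.963, 2.77 and 3.04 CPM in H2, 2.29, 2.64 and 1.96 CPM in H3 and 2.91, 5.59 and 5.83 CPM in H4. The H4 libraries lay above all those of H1 and of H3, but the lowest of them (2.91 CPM) was below the highest of H2 (3.04 CPM). Without overlap, 23.0% of all genes tested lay higher in H4 than in H1, 23.2% higher than in H2 and 20.4% higher than in H3. The counts behind these values were 16, 20 and 14 at H1, 8, 22 and 26 at H2, 19, 25 and 17 at H3 and 27, 56 and 55 at H4. The library with 8 counts, replicate 1 of H2, was the lowest of the 12, and its 95% exact Poisson interval (3.45 to 15.8 counts) overlapped that of the 22 counts of replicate 2 (13.8 to 33.3) and not that of the 26 counts of replicate 3 (17.0 to 38.1). Such intervals cover counting error only and take the values as direct read counts.

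**Figure D1:**
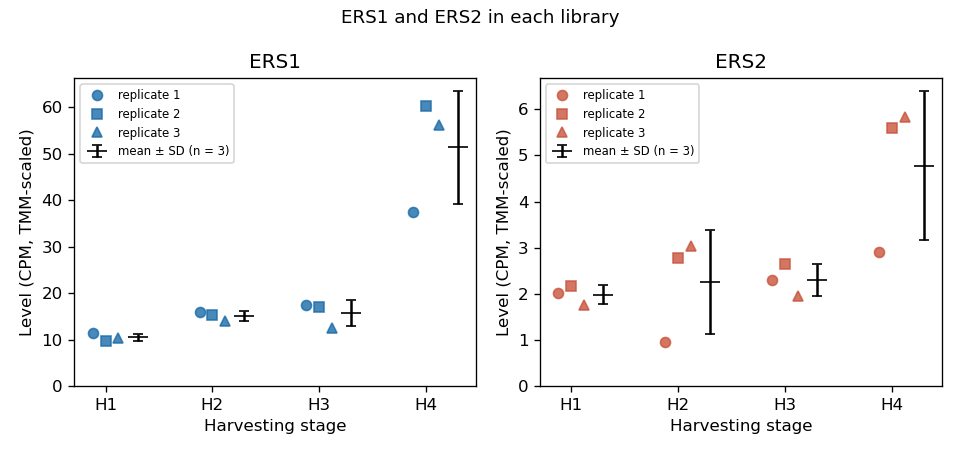
Levels of ERS1 (left) and ERS2 (right) in CPM after TMM scaling, by harvesting stage H1 to H4. Points are the 3 libraries of a stage, with 1 symbol for each replicate number, and bars give the mean and the SD. ERS1 in H4 (37.5 to 60.3 CPM) lies above all other libraries, while ERS2 in H4 (2.91 to 5.83 CPM) overlaps with H2.

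As stage means, ERS1 was at 10.5 ± 0.822 CPM in H1, 15.1 ± 1.03 in H2, 15.7 ± 2.74 in H3 and 51.3 ± 12.1 in H4 (SD, n = 3 each). ERS2 was at 1.98 ± 0.210 CPM in H1, 2.26 ± 1.13 in H2, 2.30 ± 0.341 in H3 and 4.78 ± 1.62 in H4 (SD, n = 3 each). The means of both genes thus ran in the order H1, H2, H3, H4, but for ERS1 the neighbours H2 and H3, and for ERS2 all of H1, H2 and H3, differed by less than the spread of their libraries. The spread was not the same everywhere. ERS1 varied between replicates by less than the counting error in H1 (a coefficient of variation of 7.86%, with 10.7% from Poisson counting) and by more in H4 (23.6%, with 4.50% from counting). For ERS2 the spread exceeded counting most in H2 (50.0%, with 23.1% from counting) and H4 (33.9%, with 14.7%). In the model, the biological coefficient of variation was 14.4% for ERS1 and 28.2% for ERS2, against 13% over all genes tested.

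The interval from H3 to H4 held most of the change. ERS1 was 3.27-fold higher in H4 than in H3, a log2 fold change of 1.71 ± 0.17 (approximate SE, 95% interval 1.35 to 2.07), and edgeR's quasi-likelihood test called it with an adjusted p of 2.3e-05. ERS2 was 2.07-fold higher in H4 than in H3 by the fitted value, a log2 fold change of 1.05 ± 0.36 (95% interval 0.26 to 1.84), and missed the threshold of 0.05 with an edgeR adjusted p of 0.059. One of the 2 receptor genes was thus called in this comparison, in which 20.5% of all genes tested were called and 11% were called higher. The ERS2 value passed the threshold when H2 replicate 1 was left out (log2 fold change 1.05, edgeR adjusted p = 0.020), when H4 replicate 1 was left out (1.30, adjusted p = 0.024) and when only the 6 libraries of H3 and H4 were used (1.04, adjusted p = 0.033). ERS1 had a larger fitted rise than all but 241 of the genes tested (1.04%) and ERS2 a larger one than all but 493 (2.13%). The study had chosen both genes among those it found to differ between these same libraries. Their direction, calls and rank here are therefore not independent evidence, and the shares over all genes are no fair yardstick for them.

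Both receptor genes were called higher in H4 when it was set against the first harvest. ERS1 was 4.92-fold higher in H4 than in H1 (log2 fold change 2.30 ± 0.18, 95% interval 1.92 to 2.68, edgeR adjusted p = 8.0e-07). ERS2 was 2.40-fold higher (1.26 ± 0.37, 95% interval 0.46 to 2.07, edgeR adjusted p = 0.018). In this comparison 34.5% of all genes tested were called and 18.1% were called higher. The ERS2 call was lost when H1 replicate 3 (log2 fold change 1.17, edgeR adjusted p = 0.060), H4 replicate 2 (1.14, adjusted p = 0.060) or H4 replicate 3 (1.09, adjusted p = 0.069) was left out. Against H2, ERS1 was 3.41-fold higher in H4 (log2 fold change 1.77 ± 0.17, edgeR adjusted p = 8.4e-06), and ERS2 was 2.11-fold higher by the fitted value (1.08 ± 0.37, 95% interval 0.28 to 1.87, edgeR adjusted p = 0.044), in a comparison with 28.0% of genes called and 14.7% called higher. That ERS2 call held under 7 of 20 alternatives, and among single libraries left out it was lost without H1 replicate 1 or 3, H2 replicate 1 or 2, any H3 replicate, or H4 replicate 2 or 3 (edgeR adjusted p from 0.051 to 0.14), with the lowest value without H2 replicate 1 (log2 fold change 0.71, adjusted p = 0.12).

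**Figure D2:**
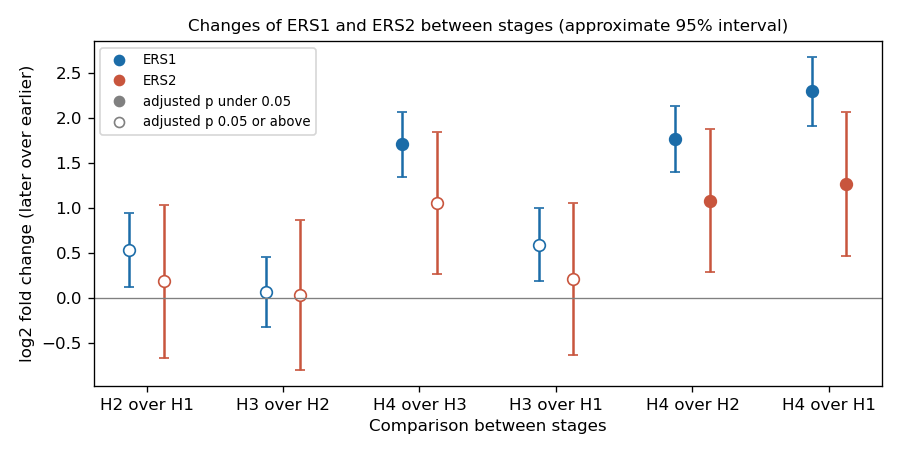
Fitted log2 fold changes of ERS1 and ERS2, later over earlier stage, for the 6 comparisons between stages. Bars are approximate 95% intervals, filled points have an edgeR adjusted p under 0.05 and open points do not. The 3 comparisons with H4 stand highest for both genes (1.71 to 2.30 for ERS1 and 1.05 to 1.26 for ERS2), and those among H1, H2 and H3 are open.

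With all 12 libraries in a single contrast, H4 was higher than the mean of H1 to H3 for both genes. The log2 fold change was 1.93 ± 0.13 for ERS1 (3.8-fold, 95% interval 1.65 to 2.20, edgeR adjusted p = 2.0e-07) and 1.13 ± 0.28 for ERS2 (2.19-fold, 95% interval 0.52 to 1.74, edgeR adjusted p = 0.0073), in a contrast that called 34.4% of the genes tested and 18.5% higher. The ERS2 call was lost without H4 replicate 3 (0.96, adjusted p = 0.052). A two-sided exact permutation test of each gene alone, over the 220 ways of choosing 3 of 12 libraries, gave a difference in mean log2 CPM of 1.90 for ERS1 (p = 0.0045, the smallest it can give) and 1.11 for ERS2 (p = 0.0091). That ERS2 test also missed the threshold without H4 replicate 2 (0.96, exact permutation p = 0.055) or H4 replicate 3 (0.93, exact permutation p = 0.055).

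The first 3 harvests were compared to see whether either receptor gene had moved before H4. ERS1 was 1.44-fold higher in H2 than in H1 by the fitted value (log2 fold change 0.53 ± 0.19, 95% interval 0.12 to 0.94) and did not pass the adjustment (edgeR adjusted p = 0.13, in a comparison with 7.11% of genes called and 3.94% called higher). It passed when H4 replicate 1 was left out (0.52, adjusted p = 0.032). ERS1 in H3 was 1.5-fold of its H1 level by the fitted value (0.59 ± 0.19, 95% interval 0.18 to 1.0, edgeR adjusted p = 0.063, with 12% of genes called and 6.79% called higher). This comparison stood close to the threshold and passed it with DESeq2 (0.58, adjusted p = 0.018), and when H3 replicate 3 (0.73, edgeR adjusted p = 0.034), H4 replicate 1 (0.58, adjusted p = 0.011) or H4 replicate 2 (0.59, adjusted p = 0.048) was left out. Between H3 and H2 ERS1 differed by 0.06 ± 0.18 on the log2 scale (95% interval -0.33 to 0.45, edgeR adjusted p = 0.93, with 5.34% of genes called and 2.98% called higher).

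Over H1 to H3, ERS1 had a slope of 0.0254 log2 units per day, with p = 0.040 in a two-sided exact permutation test over 1680 arrangements of the 9 libraries. The slope stayed above 0 whichever library was left out (0.0209 to 0.0352), and the test missed 0.05 in 6 of those 9 cases (exact permutation p = 0.062 without H2 replicate 3, 0.068 without H1 replicate 1, 0.082 without H1 replicate 3, 0.087 without H1 replicate 2, 0.091 without H3 replicate 2 and 0.10 without H3 replicate 1). ERS2 had a slope of 0.0105 log2 units per day (exact permutation p = 0.67). Its fitted differences among the first 3 stages were 0.19 ± 0.39 for H2 against H1, 0.21 ± 0.39 for H3 against H1 and 0.03 ± 0.38 for H3 against H2, with edgeR adjusted p of 0.86, 0.81 and 0.99. Their 95% intervals ran from -0.66 to 1.04, from -0.63 to 1.06 and from -0.81 to 0.86, so differences in ERS2 within these bounds were not excluded.

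H1 to H2 and H3 to H4 are both intervals of 7 days and can be set against each other directly. ERS1 changed by 0.244 log2 units per day between H3 and H4, against 0.0752 between H1 and H2 and 0.00481 between H2 and H3. The difference between the change at H3 to H4 and that at H1 to H2 was 1.18 ± 0.25 for ERS1 (95% interval 0.63 to 1.73, edgeR adjusted p = 0.010), a contrast that was added after the data were seen. In that contrast 10.6% of the genes tested were called. The genes called with a signed log2 change more positive at H3 to H4 than at H1 to H2 were 5.16% of those tested. For ERS2 the rates were 0.150 log2 units per day at H3 to H4, 0.0265 at H1 to H2 and 0.00203 at H2 to H3. Its difference between the intervals of 7 days was 0.87 ± 0.53 (95% interval -0.29 to 2.03, edgeR adjusted p = 0.37), so a faster change at the end was not established for ERS2. Of the whole fitted log2 change from H1 to H4, 74.4% of that of ERS1 and 83.2% of that of ERS2 fell between H3 and H4. These shares are ratios of fitted values without an error, and the H3 to H4 change of ERS2 was not called. They do not show that ERS2 changed later than ERS1.

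Whether the 2 receptor genes changed by the same factor was tested with the ratio of their counts within each library, which needs no library scaling and whose change needs no gene length. The log2 ratio of ERS1 to ERS2 counts was 2.46, 2.14 and 2.51 in the H1 libraries, 3.96, 2.44 and 2.17 at H2, 2.90, 2.67 and 2.65 at H3 and 3.66, 3.42 and 3.26 at H4. The H4 libraries lay above all others but replicate 1 of H2, the library with 8 ERS2 counts. The mean was 3.45 ± 0.20 in H4 (SD, n = 3) and 2.66 ± 0.54 in H1 to H3 (SD, n = 9), a difference of 0.79 with p = 0.032 in the two-sided exact permutation test. This difference sat near the threshold: it missed 0.05 without H1 replicate 1 (0.77, exact permutation p = 0.055), H2 replicate 2 (0.76, exact permutation p = 0.055), H4 replicate 1 (0.68, exact permutation p = 0.091), H4 replicate 2 (0.80, exact permutation p = 0.055) or H4 replicate 3 (0.89, exact permutation p = 0.055). Single pairs of stages could not be tested this way, since 3 against 3 libraries cannot give an exact p below 0.10.

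**Figure D3:**
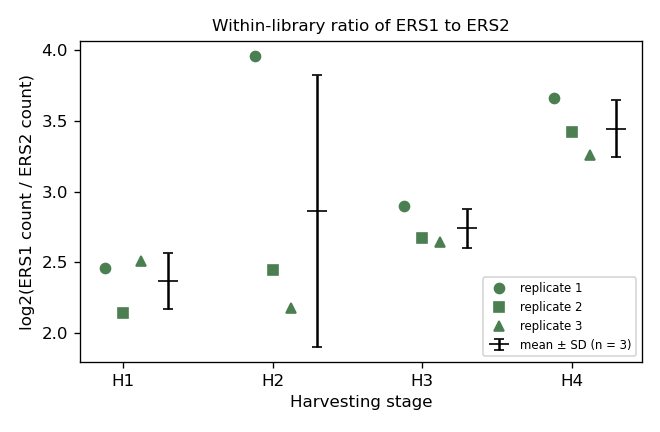
Within-library log2 ratio of ERS1 counts to ERS2 counts (prior of 0.5 added to each), by harvesting stage. Points are libraries and bars the mean and the SD of 3. The H4 libraries lie between 3.26 and 3.66, the other 9 between 2.14 and 3.96, the highest being the H2 library with 8 ERS2 counts.

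Within H4, replicate 1 was the lowest library for both receptor genes. It had 0.644 times the mean of the other H4 libraries for ERS1 and 0.510 times for ERS2, while over all genes tested the median of this ratio was 0.991 and the replicate was lowest of the 3 for 35.8%. It was also the lowest for 6 of the 8 other ethylene genes tested. For ERS1 it still lay above all libraries of the other stages, and what sets this library lower was not tested. Without it, the difference in mean log2 CPM between H4 and H1 to H3 was 2.11 for ERS1 and 1.43 for ERS2.

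The other genes of the ethylene pathway were a list of 11, chosen because an identifier was given for each, and are described in order from synthesis to response. The study named them, like the receptors, among genes it found to differ between these same libraries. Their calls and direction here are therefore not independent evidence, and the shares over all genes are no fair yardstick for them. Of these, 8 passed the filter on low counts, among them ACS PCP013122 and AP2/ERF PCP027843, which passed only through their H4 libraries and so had to be higher there. In H4 against H3, 3 of the other 6 were called higher and none lower by edgeR, beside 11% of all genes tested called higher, with a median log2 fold change of 1.03 beside -0.0038 over all genes (5 of the 8 and a median of 1.85 with those genes). In H4 against H1, the other 6 were all called higher, beside 18.1% of all genes, with a median of 3.46, or 2.80 with ACO PCP022491, near 0 in H1, set at its lower bound, beside 0.0034 over all genes (8 of the 8 with those genes). In H3 against H1, 3 of the other 6 were called higher and none lower, beside 6.79% of all genes called higher, with a median of 1.03, also with ACO PCP022491 at its bound, beside 0.0066 over all genes. Over all 8 the count in H3 against H1 was 4, and 2 were called higher without H1 replicate 1, without H3 replicate 2 or without H3 replicate 3.

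Among the genes of ethylene synthesis, ACO PCP011683 was called higher in H4 than in H3, as ERS1 was, and the other ACO genes were not. ACS PCP013122 was called higher too, but it passed the filter only through its H4 libraries, so its call is no support. The ACC synthase gene PCP013122 had no count at H1, 0, 3 and 0 counts at H2, 7, 7 and 10 at H3 and 42, 42 and 57 at H4. It was 5.34-fold higher in H4 than in H3 (log2 fold change 2.42 ± 0.51, edgeR adjusted p = 0.0073) and at least 13.7-fold higher in H4 than in H1, taking 3 counts per library as the floor. The second ACC synthase gene, PCP011500, did not pass the filter and had 0 counts in all libraries of H1 and H3, 3, 0 and 5 in H2 and 5, 22 and 22 in H4. The ACC oxidase gene PCP011683 had 98, 123 and 83 counts at H1, 93, 89 and 67 at H2, 75, 105 and 116 at H3 and 770, 1456 and 1293 at H4. It was 10.9-fold higher in H4 than in H3 (3.45 ± 0.22, edgeR adjusted p = 6.8e-07) and had fitted values of -0.26 ± 0.26 in H2 and -0.11 ± 0.25 in H3 against H1, with neither called. The ACC oxidase gene PCP009685 had 4, 4 and 0 counts at H1, 11, 9 and 15 at H2, 16, 21 and 24 at H3 and 25, 44 and 45 at H4. It was called higher in H3 than in H1 (2.81 ± 0.54, edgeR adjusted p = 0.0044) and not in H4 against H3 (0.78 ± 0.40, adjusted p = 0.20). The remaining ACC oxidase gene, PCP022491, had 7, 13 and 12 counts in H4 and 9, 14 and 8 in H3, with a log2 fold change of -0.07 ± 0.71 that was not called.

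Ethylene response factors, the transcription factors at the end of the pathway, differed among themselves before H4. ERF2 (PCP002056) had 13, 9 and 16 counts at H1, 171, 155 and 159 at H2, 15, 23 and 21 at H3 and 241, 364 and 398 at H4. It was higher in H2 than in H1 (log2 fold change 3.68 ± 0.24, edgeR adjusted p = 3.5e-06), lower in H3 than in H2 (-3.13 ± 0.22, adjusted p = 1.2e-05) and higher in H4 than in H3 (3.96 ± 0.22, adjusted p = 2.1e-07). The fitted values of the receptor genes for H3 against H2 were 0.06 for ERS1 and 0.03 for ERS2, neither called. The ERF gene PCP011831 had 13, 24 and 16 counts at H1, 5, 8 and 11 at H2, 20, 17 and 23 at H3 and 46, 56 and 57 at H4, and was called higher at H4 than at H3 (1.27 ± 0.26, edgeR adjusted p = 0.0041). The AP2/ERF gene PCP014930 had 2, 5 and 6 counts in H1 and 25, 26 and 22 in H4, and was not called in H4 against H3 (0.75 ± 0.32, edgeR adjusted p = 0.13). AP2/ERF PCP027843 had 17, 24 and 22 counts in H4 and none in H3, at least 6.41-fold higher. ERF1 (PCP015040) and AP2/ERF PCP016390 did not pass the filter, and neither had a count in H4, against up to 14 counts of ERF1 in H2 and up to 11 of PCP016390 in H1.

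**Figure D4:**
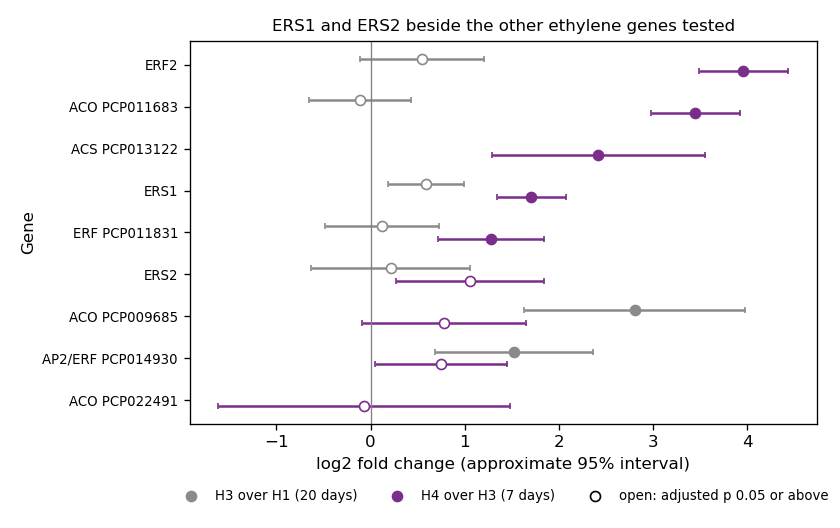
Fitted log2 fold changes of ERS1, ERS2 and the other ethylene genes tested, for H4 over H3 (7 days) and H3 over H1 (20 days), with approximate 95% intervals. Filled points have an edgeR adjusted p under 0.05, and values against a stage whose libraries were all at or under 3 counts are not drawn, which leaves out AP2/ERF PCP027843. The fitted values of ERS1 (1.71) and ERS2 (1.05) lie below those of ERF2 (3.96), ACO PCP011683 (3.45) and ACS PCP013122 (2.42) in H4 over H3. ACS PCP013122 passed the filter only through its H4 libraries and so had to be higher there.

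The other 6 genes that the study followed by RT-qPCR, chosen like the receptors among genes it found to differ in these libraries, are Aux/IAA, polygalacturonase (PG), lipoxygenase (LOX), alcohol dehydrogenase (ADH), alcohol acyltransferase (AAT) and hydroperoxide lyase (HPL), genes of auxin response, cell wall breakdown and aroma synthesis. ADH passed the filter only through its H4 libraries and so had to be higher there. The other 5 were all called higher in H4 than in H3, beside 11% of all genes tested called higher, with a median log2 fold change of 2.06 beside -0.0038 over all genes. Given how they were chosen, these calls are not independent evidence, and the values over all genes are no fair yardstick for them. The RT-qPCR reference gene PCP030439, a gene expected to be steady, differed between H4 and H3 by -0.14 ± 0.06 on the log2 scale (edgeR adjusted p = 0.14) and between H4 and H1 by -0.20 ± 0.06 (adjusted p = 0.030). That value stayed below 0 under total-count (-0.28) and median-ratio (-0.21) scaling and missed the threshold with DESeq2 (adjusted p = 0.067). It is small beside the changes of ERS1 and ERS2 between the same stages.

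Likeness of pattern was measured as Pearson's r of log2(CPM + 1) over the 12 libraries, which share the stages and the step to H4, among genes with a mean of at least 5 CPM. ERS1 and ERS2 had r = 0.80 and Spearman's rho = 0.66 with each other over 12 libraries. Over the 9 libraries of H1 to H3 alone r was 0.12, so most of their likeness came with H4. By r over 12 libraries, ERS2 took place 2143 for ERS1 among the 23154 other genes tested, whatever their mean. ERS1 took place 340 for ERS2. ERS1 was most like PCP008262 (r = 0.991, and 0.911 over H1 to H3), a gene without a name in the sources used, with 96.2 CPM in H1, 124.3 in H2, 131.2 in H3 and 284.5 in H4. Among the listed genes, whatever their mean, ADH (r = 0.971) and HPL (r = 0.951) came closest to ERS1 and LOX (r = 0.867) closest to ERS2. Over H1 to H3 alone these values were 0.627 for ADH, 0.863 for HPL and 0.486 for LOX. ADH passed the filter only through its H4 libraries, so its r over 12 libraries is no support. Its value over H1 to H3 rests on at most 7 counts per library. The gene most like ERS2 was PCP043994 (r = 0.942), whose mean was 13.1 ± 1.20 CPM in H4 and 10.5 ± 0.231 CPM in H1 (SD, n = 3 each).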

How the data were processed

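Per the labels and the paper's methods, the authors made 12 single-end libraries from flesh RNA, trimmed the reads, used HISAT2 for alignment to a genome of Pyrus communis, quantified with StringTie and compared the stages with DESeq2. Their versions, the genome build and the step that gave counts are not given in the sources used here. The labels name another kit, sequencer and read length than the methods. Whether the libraries kept strand was not established, so a separation of antisense and overlapping genes cannot be relied on. How reads shared by near-identical copies were assigned is not given. The deposited table is titled FPKM, but its library columns hold whole-number counts that were not normalized, and all its columns were matched to a library or a stage (0 left over). The library columns held 5931 values of 1 and 9996 values of 2. The counting errors given take the values as direct read counts, which was not tested. The authors' 4 stage columns hold a mean signal per stage, equal to the mean of the library counts, and were not used further.

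Counts were tested in R 4.3.3 with edgeR 4.0.16 (TMM, quasi-likelihood, 1 term per stage, all 12 libraries, a filter of 1 CPM or more in 3 or more libraries, Benjamini-Hochberg within a comparison, threshold 0.05). Errors of log2 fold changes are the log2 fold change over the square root of F and are approximate. Exact permutation tests used log2 CPM (prior count 0.5) in Python 3.11.15 with scipy 1.17.1, numpy 2.4.6 and pandas 2.3.3, and figures matplotlib 3.10.9. The edgeR script was tested on simulated data. Within a stage, replicates differed by more than sampling noise (lowest chi-square per degree of freedom 2.50). The labels do not say whether replicate numbers pair the libraries, which were treated as unpaired. P-values set differences between stages against the spread between these libraries, all from a single orchard.

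The genes named are ERS1 and ERS2, the 11 other ethylene genes and 6 other candidates with an identifier in the paper, its reference gene, and the genes most correlated with each receptor (at most 2 unnamed ones printed). The members and lists were chosen with earlier results of these data known. Alternatives were total-count and median-ratio scaling, no filter, a 5 CPM filter, DESeq2 1.42.0, limma-voom (limma 3.58.1), only 6 libraries, adjustment over 6 comparisons, each library left out, a replicate block, other priors and other likeness measures. The contrast of the 2 intervals of 7 days was added after seeing the data. No sequences or coordinates are printed.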

Additional observations from a re-analysis of the deposited data

How the results depend on the processing

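The higher level of ERS1 in H4 against H1, H2, H3 and their mean, and its larger change at H3 to H4 than at H1 to H2, kept their direction and call under every alternative run. ERS2 has no value under the 5 CPM filter, which it did not pass. With total-count scaling the H4 against H2 value of ERS2 was 0.98 (edgeR adjusted p = 0.060), without a filter 1.08 (0.051), adjusted over 6 comparisons 1.08 (0.062) and with 6 libraries 1.07 (0.073); for its H4 against H3 value 6 libraries gave 1.04 (0.033). For ERS1, 6 libraries gave 0.52 (0.038) in H2 against H1 and 0.58 (0.047) in H3 against H1, where DESeq2 gave 0.58 (0.018) and adjustment over 6 comparisons 0.59 (0.048). The ratio of ERS1 to ERS2 with a prior of 0 differed by 0.77 (exact permutation p = 0.050). The cause of these shifts was not tested.

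With each library left out in turn, log2 fold changes of ERS1 ran from 0.48 to 0.59 (H2 against H1), -0.017 to 0.20 (H3 against H2, below 0 without H3 replicate 1, -0.017, and without H3 replicate 2, -0.0059) and 0.51 to 0.73 (H3 against H1). Those of ERS2 ran from -0.094 to 0.54 (H2 against H1, below 0 without H2 replicate 3, -0.094), -0.33 to 0.31 (H3 against H2, below 0 without H2 replicate 1, -0.33, and without H3 replicate 2, -0.089), 0.89 to 1.30 (H4 against H3), 0.71 to 1.36 (H4 against H2), 1.09 to 1.51 (H4 against H1) and 0.96 to 1.38 (H4 against the average of the first 3 stages). The single-gene difference of ERS2 ran from 0.93 to 1.43, the ERS1 slope from 0.0209 to 0.0352 and the ratio difference from 0.68 to 0.95.

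Same-numbered libraries deviated from their stage means with r from -0.041 to 0.209 (other pairs -0.126 to 0.066). The highest values were among replicate 2 of H1, H3 and H4 (0.209 for H1 with H3, 0.138 for H3 with H4 and 0.104 for H1 with H4). Replicate 2 of H2 had values below 0 with each of them (-0.0047, -0.013 and -0.041). Whether the numbers pair the libraries was thus not settled, and the libraries were treated as unpaired. With a replicate block, ERS1 in H4 against H3 was 1.71 (edgeR adjusted p = 1.3e-04) and ERS2 1.01 (adjusted p = 0.055); the block changed no call of either gene and left 1 ethylene gene called higher in H2 than in H1.

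Of the ethylene genes, the 5 CPM filter left 1 called higher in H2 against H1, 0 in H3 against H2, 0 in H3 against H1 and 2 in each comparison with H4, since it removed most of the list. For H2 against H1, 1 gene in place of 2 was called higher without a filter, with limma-voom and with 6 libraries, and 1 was called lower with adjustment over 6 comparisons. For H3 against H2, 0 in place of 1 were called higher with DESeq2, limma-voom and 6 libraries, and 2 with adjustment over 6 comparisons. In H3 against H1 6 libraries left 1. Without a filter and with DESeq2, which test the 3 low genes too, 2 were called lower in H4 than in H2, 1 in H4 than in H1 and 1 in H4 than in the mean of H1 to H3. With a library left out, the genes called higher numbered 1 to 2, 0 to 1, 4 to 5 and 2 to 4 in H2 against H1, H3 against H2, H4 against H3 and H3 against H1.

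Over all genes, leaving out an H2 library gave 940 to 1049 calls in H2 against H1 (1646 with all), and leaving out an H2 library, H3 replicate 1 or H3 replicate 3 gave 687 to 762 in H3 against H2 (1236 with all, 1898 with adjustment over 6 comparisons). Total-count scaling, which lowers H4, turned 2540 higher and 2201 lower calls in H4 against H3 into 1621 and 3432, 3398 and 3083 in H4 against H2 into 2409 and 4375, 4199 and 3797 in H4 against H1 into 3189 and 4956, and 4278 and 3678 in H4 against the average of the first 3 stages into 2975 and 5377. It split the contrast of the 7-day intervals into 805 and 1952 in place of 1195 and 1267 and moved its median over all genes to -0.10, against which ERS1 stood at 1.08. Spearman's correlation shared 1 of the 5 genes most like ERS1 and 0 of those most like ERS2, and total-count scaling 3 for ERS2. ERS2 rested on 8 to 56 counts per library, and its spread between replicates was above counting error in H2 and H4.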
